A study of Mus musculus with 816 samples.

Results

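Nicotine added to a high dose of lipopolysaccharide (LPS) for 4 h was examined in 15 cultures of primary mouse microglia, of 816 samples in the whole series. The members were chosen by stimulus and time alone: 8 cultures labelled as LPS_hi with nicotine at 4 hrs (LPS + nicotine) and 7 cultures labelled as LPS_hi alone at 4 hrs (LPS). The study profiled microglia under a panel of stimuli by RNA sequencing, and the comparison made here asks which genes nicotine alters in cells that also receive LPS. LPS was given at 0.0001 µg/µl in both groups, and the label of the combination gives no dose for nicotine, which was used at 1000 µM where it was given alone. The cells were commercial neonatal microglia grown in 96-well plates, with no genetic change named in the labels. Both groups were spread over 2 plates, called plate X and plate Y here, each with 1 source identifier. Their libraries were made in pools, called X1, X2, Y1 and Y2. No untreated 4 h culture was used here, so the chemokine-treated cultures (CCL2 and CCL7, 7 of each, at 0.0001 µg/µl) stood in for cells without LPS. The other groups used were nicotine alone at 4 h (8 cultures) and 24 h (8), untreated cells at 24 h (40), and norepinephrine at 4 h, alone at 1 µM (7) or with the same dose of LPS (8, with no norepinephrine dose given). Fits on all 63 cultures at 4 h also held ATP, alone at 1000 µM (5 cultures) or with LPS (6), which is not described further.

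LPS is a bacterial glycolipid sensed through Toll-like receptor 4, which drives microglia to transcribe cytokines, chemokines and the enzymes that make nitric oxide and prostaglandins. Nicotine is an agonist of nicotinic acetylcholine receptors, ligand-gated cation channels, and in macrophages the receptor encoded by Chrna7 is linked to restrained cytokine production through JAK2 and STAT3. Glucocorticoid and cAMP signals are other known brakes on LPS responses, and Per1 and Dusp1 are targets of both.

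The plate layout limits the comparison. All 8 LPS + nicotine cultures lay in edge or corner wells, whereas 2 of the 7 LPS cultures did. On plate Y the LPS cultures were in pool Y1 and the LPS + nicotine cultures in pool Y2, so treatment and pool cannot be told apart there, and only pool X1 held both groups (3 LPS and 2 LPS + nicotine cultures). Genes above 5 CPM (counts per 1000000 mapped reads) numbered 6584 to 6962 in the LPS cultures of Y1, 7781 to 8180 in those of X1 and 7683 to 8399 in the LPS + nicotine cultures. The estimated depth was 1.20 to 13.7 M reads (1000000 reads) for LPS and 2.57 to 32.5 M for LPS + nicotine. The summed level of 13 microglial markers was 5844 to 7772 CPM in LPS and 4671 to 8428 CPM in LPS + nicotine, and none of the 8 astrocyte, 8 neuron or 12 other-leukocyte markers was abundant enough to be tested. Of 9 oligodendrocyte lineage markers, with Mog at 0, 3 were tested and none was called (median log2 fold change 0.87, and 1.48 on plate Y), and the sum of all 9 had a median of 29.4 CPM in LPS (2.63 to 57.9) and 48.1 CPM in LPS + nicotine (10.6 to 68.8). Fibroblast and mural markers (8 genes) summed to 28.1 to 600 CPM in LPS and 22.2 to 391 CPM in LPS + nicotine, and endothelial markers (6 genes, Cldn5 and Tek at 0) to 10.7 to 60.3 and 22.9 to 175 CPM; their part in the results was not tested. The labels do not tie cultures to separate animals, so p-values measure the spread between cultures. In bulk RNA, fewer cells of a kind and less RNA per cell cannot be told apart.

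Few genes passed the test between LPS + nicotine and LPS, a difference that holds pool and well position as well as nicotine. Those that differed most included a circadian and hormone-responsive gene, a phosphatase and metallothioneins on the higher side, and inflammatory enzymes on the lower side. Of 9078 genes tested, 40 were called (0.441%) by limma, with a Benjamini-Hochberg adjusted p under 0.05 and a log2 fold change of 1 or more in either direction, and 1363 had an unadjusted p under 0.05. Of these, 31 rose (0.341%) and 9 fell (0.0991%). The log2 scale is log2(CPM + 1) throughout, which understates changes of low genes. The median over all genes tested was 0.27, so that the typical gene was itself higher in LPS + nicotine. When each culture was centred on its own median, 17 genes rose and 12 fell, and the share of calls on the higher side went from 77.5% to 58.6%. All 40 genes kept their sign on each plate, and in 21 of them the 8 and 7 cultures did not overlap, against 39 genes (0.43%) without overlap among all tested. Leaving out 1 culture gave between 12 calls (without LPS replicate 7) and 109 calls (without LPS replicate 1, the plate X edge well), and 10 genes were called in every such fit: Per1, Sprr2d, Dusp1, Zfp672, Mt2, Arrdc3, Gm37102 (chosen after its values were seen), Gm13889, Ptgs2 and Slamf7. Sprr2d, Zfp672, Arrdc3 and Gm37102 exceeded 5 CPM in no LPS culture, so they passed the filter for low genes through LPS + nicotine alone.

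**Figure D1:**
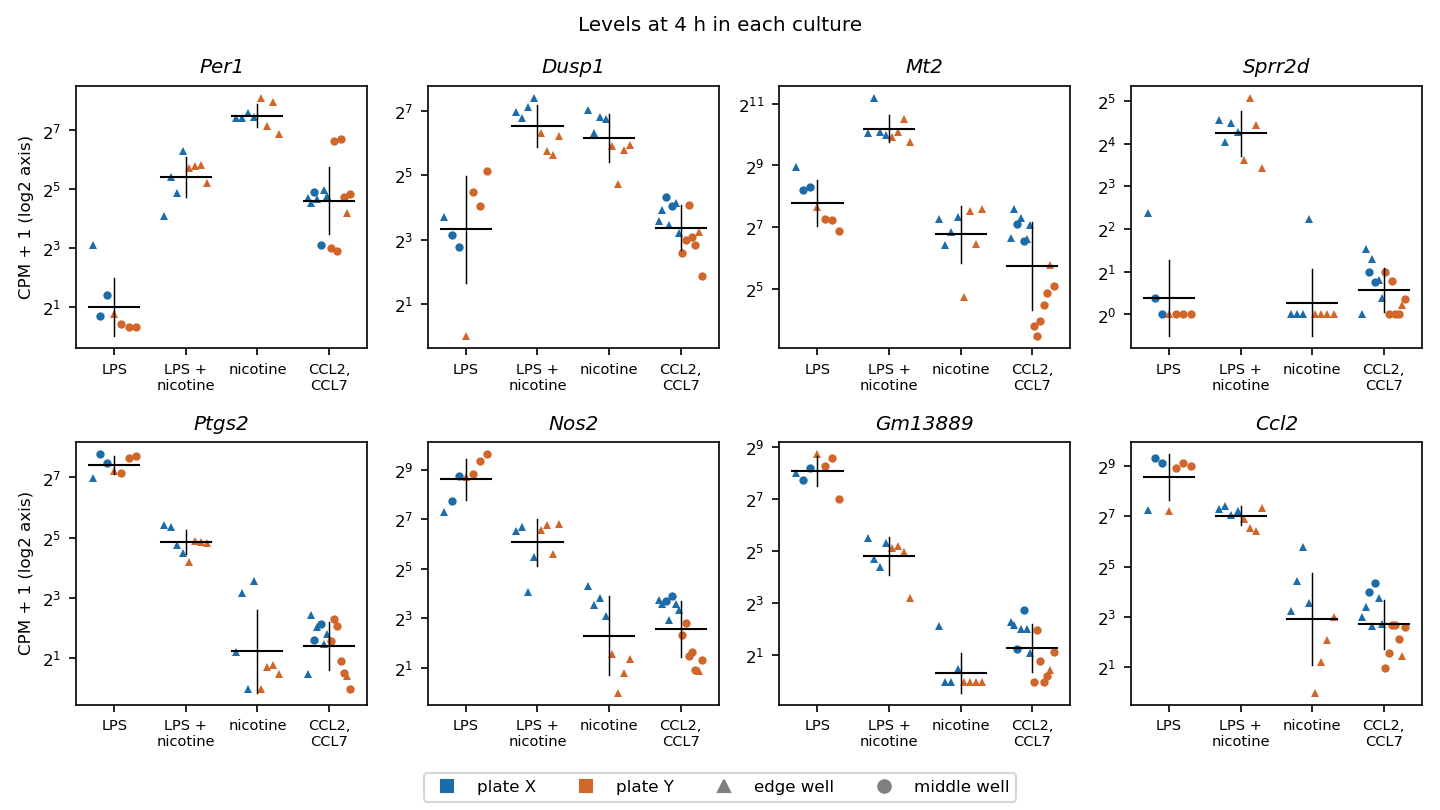
Level of 8 genes in single cultures, in CPM + 1 on a log2 axis, for LPS, LPS + nicotine, nicotine alone and the CCL2 and CCL7 cultures, with plates in colour, edge and middle wells as separate markers, and bars giving the mean ± SD on the log2 scale. Per1 lay between 16.1 and 77.3 CPM with LPS + nicotine and at or below 7.57 CPM with LPS, whereas the 2 LPS edge cultures lay near the LPS + nicotine cultures for Ccl2.

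The steepest rise was in Per1, a repressor of the circadian clock that glucocorticoids and cAMP also induce (GRCm38 chr11:69095217-69109960, plus strand). Its level was 0.237, 0.621 and 7.57 CPM (lowest, median and highest) in LPS and 16.1, 46.9 and 77.3 CPM in LPS + nicotine. The groups did not overlap, and the highest LPS culture was the edge well of plate X. The log2 fold change was 4.40 ± 0.42 (SE; adjusted p = 3.17e-05, limma), 3.44 on plate X and 5.18 on plate Y. Its level with LPS was low beside that in the chemokine-treated cultures, where the median was 25.4 CPM.

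Dusp1 encodes a dual-specificity phosphatase that switches off MAP kinases (GRCm38 chr17:26505590-26562128, minus strand). Its level was 0, 12.01 and 34.2 CPM in LPS and 47.9, 92.8 and 167 CPM in LPS + nicotine, with no overlap. The log2 fold change was 3.19 ± 0.59 (adjusted p = 0.0252, limma). The difference was 3.86 on plate X and 2.55 on plate Y, and Dusp1 was the only gene called with plate X alone (adjusted p = 0.0103; 0.0123% of genes), where plate Y alone gave 105 calls (1.38%). The 2 LPS edge cultures read 12.01 and 0 CPM, so neither lay near the LPS + nicotine cultures. Dusp1 was the only called gene of the 9 tested MAP kinase phosphatases (median 0.26), and Per1 the only called gene of 21 immediate early and cAMP response genes (median -0.14).

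The promoters of these 2 genes, which rose, and of Ptgs2 and Ch25h, which fell and are described next, are shown because each holds a cAMP response element or its half-site. Each window runs from 250 bases before the RefSeq start to the 50 bases from it on (GRCm38.p6, 5′ to 3′ on the gene's strand). Capitals mark matches, on either strand, to the cAMP response element TGACGTCA, its half-site TGACG or the E-box CACGTG. The genes shown were chosen after their values were seen.
Per1, upstream start, chr11:69098699-69098998, plus strand: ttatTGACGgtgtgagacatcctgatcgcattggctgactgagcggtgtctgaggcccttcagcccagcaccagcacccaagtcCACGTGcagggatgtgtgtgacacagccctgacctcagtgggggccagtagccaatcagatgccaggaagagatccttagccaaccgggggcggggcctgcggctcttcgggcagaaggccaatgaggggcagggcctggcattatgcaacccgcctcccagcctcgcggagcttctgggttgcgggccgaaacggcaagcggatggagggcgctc
Per1, downstream start, chr11:69099902-69100201, plus strand: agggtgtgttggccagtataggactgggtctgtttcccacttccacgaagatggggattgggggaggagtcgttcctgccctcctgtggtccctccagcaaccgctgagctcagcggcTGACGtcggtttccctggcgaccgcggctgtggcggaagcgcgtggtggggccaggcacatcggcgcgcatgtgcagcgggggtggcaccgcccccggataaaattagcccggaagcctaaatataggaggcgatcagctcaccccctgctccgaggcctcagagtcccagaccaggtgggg
Dusp1, chr17:26508423-26508722, minus strand: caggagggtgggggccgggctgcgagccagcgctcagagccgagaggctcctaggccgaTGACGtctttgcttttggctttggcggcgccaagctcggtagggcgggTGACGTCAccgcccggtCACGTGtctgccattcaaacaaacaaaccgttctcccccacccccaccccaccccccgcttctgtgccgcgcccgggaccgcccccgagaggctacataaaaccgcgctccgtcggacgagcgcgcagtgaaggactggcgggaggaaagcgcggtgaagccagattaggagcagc
Ptgs2, chr1:150099781-150100080, plus strand: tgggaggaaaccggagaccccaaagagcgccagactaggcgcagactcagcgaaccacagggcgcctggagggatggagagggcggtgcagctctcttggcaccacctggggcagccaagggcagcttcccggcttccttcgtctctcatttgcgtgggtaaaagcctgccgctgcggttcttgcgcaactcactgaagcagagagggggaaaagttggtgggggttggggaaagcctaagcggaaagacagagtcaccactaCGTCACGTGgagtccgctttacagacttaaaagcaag
Ch25h, chr19:34475099-34475398, minus strand: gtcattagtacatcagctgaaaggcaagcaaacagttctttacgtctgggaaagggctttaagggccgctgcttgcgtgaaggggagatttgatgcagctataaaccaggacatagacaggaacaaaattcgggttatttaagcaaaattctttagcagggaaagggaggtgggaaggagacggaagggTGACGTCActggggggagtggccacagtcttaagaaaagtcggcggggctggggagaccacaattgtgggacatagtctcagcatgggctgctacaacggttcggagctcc
The Dusp1 window held the full element 143 bases before the start, which contains a half-site on each strand, a further half-site at -191 and an E-box at -126. The full element was also in the windows of Ch25h at -61 and of Gtf3c1, which rose, at -122. The Per1 windows held a half-site each, at -246 and -132, and the upstream window also held an E-box at -166. The Ptgs2 window held a half-site at 14 bases past the start that overlaps an E-box at 17. Of 32851 RefSeq windows of this length, 1.79% held TGACGTCA, 20.8% TGACG and 7.15% CACGTG. Because the windows shown were chosen for holding a match, these shares cannot show enrichment, which was not tested. Half-sites also lay in windows of other called genes, among them Rasgef1b, Arrdc3, Zfp672, Aktip, Mt1 and Ccl22. They lay in those of Il6, Klf9 and Tsc22d3 too, which were not called. An NF-kB motif, held by 5.56% of the 32851 windows, was also searched for. It matched windows of Rasgef1b, Aktip, Il6 and Il1rn, among others, but none of those shown. A match is a stretch of letters and not a measured binding site.

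Metallothioneins, which bind zinc and copper and scavenge oxidants, rose together. Mt2 (GRCm38 chr8:94172664-94173568, plus strand) was at 116, 198 and 489 CPM in LPS and 871, 1074 and 2344 CPM in LPS + nicotine. The groups did not overlap, and the log2 fold change was 2.42 ± 0.32 (adjusted p = 0.00152, limma). Its neighbour Mt1 rose by 1.58 ± 0.33 (adjusted p = 0.0455), from a median of 287 to 696 CPM, without overlap. These genes are close copies, so reads shared between them could have been split by the quantification. In the wider list of metallothionein and metal-handling genes, 2 of the 13 tested rose and none fell, with a median of 0.84 beside 0.27 for all genes. Mt2 was also higher in edge than in middle wells of the same pool (log2 difference 1.07, adjusted p = 0.0145). In a fit with pool and well position as terms, given below, its estimate was smaller and Mt2 was not called. The part of well position by itself was not tested.

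Sprr2d, a small proline-rich protein of epithelial barriers and a member of a family of near-identical genes, was at 0 in 5 of the 7 LPS cultures and reached 4.22 CPM in the edge well of plate X. In LPS + nicotine it was at 9.84, 19.5 and 32.6 CPM. The groups did not overlap and the log2 fold change was 3.85 ± 0.37 (adjusted p = 3.17e-05, limma). Sprr2d passed the filter through LPS + nicotine alone, which limits this p-value. Because reads of family members could be assigned to each other, the identity of this transcript is uncertain.

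Other genes that rose without overlap were at lower levels or rose less. Arrdc3, an arrestin-domain adaptor for beta-adrenergic receptors, had a median of 0.689 CPM in LPS and 6.51 CPM in LPS + nicotine (log2 fold change 2.25 ± 0.36, adjusted p = 0.00916). Zfp672, a zinc finger protein, rose by 3.05 ± 0.40 (adjusted p = 0.00152) from a median of 0.495 to 14.3 CPM. No LPS culture exceeded 5 CPM for Arrdc3, Zfp672 or Zfp825 (named below). These genes passed the filter through LPS + nicotine alone, which limits their p-values. Slc43a2, a transporter of large neutral amino acids, lay at 32.1 to 90.5 CPM in LPS and 103 to 157 CPM in LPS + nicotine, a log2 fold change of 1.40 ± 0.26 (adjusted p = 0.0252). Itpkb, a kinase that phosphorylates inositol trisphosphate, rose by 1.32 ± 0.23 (adjusted p = 0.0204). The remaining genes of this kind were Mtmr4, Gtf3c1, Aktip, Phf12, Calhm2 and Zfp825, with log2 fold changes of 1.92 to 2.52. Pool Y1, with 4 of the 7 LPS cultures and no LPS + nicotine culture, was also low for some genes without LPS. Its 2 CCL7 cultures read 0 and 3.97 CPM for Gtf3c1, and 0 and 0.992 CPM for both Calhm2 and Zfp672. The CCL2 cultures, all in other pools, read 23.1 to 54.8, 15.5 to 50.0 and 4.43 to 14.7 CPM. For Aktip, Phf12 and Zfp825 the higher of these CCL7 cultures read 93.8 CPM or more. The part of pool in these rises was not tested.

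On the lower side, Ptgs2, which encodes the inducible cyclooxygenase COX-2 of prostaglandin synthesis (GRCm38 chr1:150100031-150108227, plus strand), was at 126, 176 and 218 CPM in LPS. In LPS + nicotine it was at 17.5, 27.6 and 42.3 CPM. The groups did not overlap, and the LPS edge cultures, at 126 and 147 CPM, lay with the other LPS cultures. Its log2 fold change was -2.56 ± 0.24 (adjusted p = 3.17e-05, limma), -2.39 on plate X and -2.72 on plate Y. The LPS + nicotine cultures stayed above the chemokine-treated ones, which did not exceed 4.46 CPM. In the list of prostaglandin and leukotriene genes, 1 of 15 tested fell (Ptgs2) and 1 rose, the prostaglandin E2 receptor gene Ptger2 (log2 fold change 2.40 ± 0.46, adjusted p = 0.0287). Ptger2 was at 0, 1.42 and 9.10 CPM in LPS and 6.50, 10.0 and 19.8 CPM in LPS + nicotine, with overlap.

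Nos2, the inducible nitric oxide synthase (GRCm38 chr11:78920787-78960254, plus strand), was at 158, 429 and 796 CPM in LPS and 15.8, 92.1 and 112 CPM in LPS + nicotine. The groups did not overlap, although the lowest LPS culture was again an edge well of plate X. The log2 fold change was -2.55 ± 0.45 (adjusted p = 0.0204, limma). It was the only called gene of 10 tested in the list of nitric oxide, itaconate and arginine metabolism, whose median was 0.18.

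Gm13889, a predicted gene on the minus strand (GRCm38 chr2:93955810-93957201) that overlaps Gm27027 on the same strand and so may share its reads, had the largest fall. It was at 126, 291 and 419 CPM in LPS and 8.24, 31.9 and 44.7 CPM in LPS + nicotine, without overlap. The log2 fold change was -3.26 ± 0.35 (adjusted p = 0.000117, limma). The chemokine-treated cultures did not exceed 5.74 CPM, and the 2 LPS edge cultures read 253 and 419 CPM.

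Slamf7, a signalling-lymphocyte-activation family receptor of activated leukocytes, fell from a median of 113 to 20.9 CPM (log2 fold change -2.41 ± 0.40, adjusted p = 0.0132), by 1.57 on plate X and by 3.07 on plate Y. Rasgef1b, a guanine nucleotide exchange factor induced by Toll-like receptors, was at 756 to 1085 CPM in LPS and 203 to 645 CPM in LPS + nicotine (log2 fold change -1.44 ± 0.27, adjusted p = 0.0255). Ch25h, the interferon- and LPS-inducible enzyme that makes 25-hydroxycholesterol, was at 228 to 347 CPM in LPS and 63.3 to 207 CPM in LPS + nicotine (log2 fold change -1.27 ± 0.26, adjusted p = 0.0446). None of these 3 genes overlapped between groups. Ccl22, a chemokine for CCR4-bearing T cells, also fell (log2 fold change -1.88 ± 0.39, adjusted p = 0.0474), but its groups overlapped and its difference was -0.68 on plate X and -2.93 on plate Y.

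**Figure D2:**
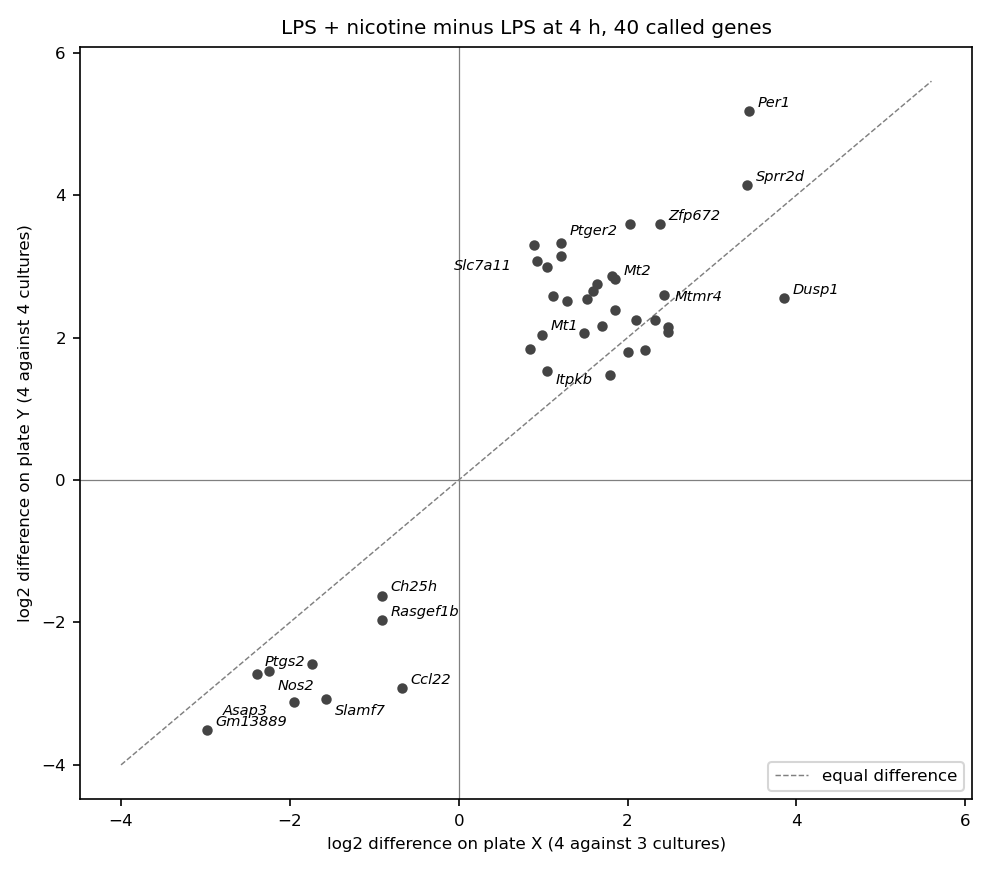
Log2 difference between LPS + nicotine and LPS for the 40 called genes on plate X (4 against 3 cultures, horizontal axis) and plate Y (4 against 4 cultures, vertical axis); the dashed line marks equal differences. All 40 points had the same sign on each plate, but the genes were called on these same cultures, so this is no replication. Dusp1 (3.86 on X, 2.55 on Y) lay on the side of plate X.

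Cytokine transcripts themselves did not pass the test. Among all 9078 genes 0.441% did, so a list of this size would seldom hold a call. Of 18 tested cytokines and antagonists, none was called (limma) and 17 lay below 0, with a median of -0.46. Among all genes tested 2718 lay below 0. Tnf was at 13384, 16744 and 25712 CPM in LPS and 6867, 11829 and 18337 CPM in LPS + nicotine (log2 fold change -0.58 ± 0.27, adjusted p = 0.324). The groups overlapped, and the difference was -0.96 on plate X and -0.19 on plate Y. Il1b (-0.49), Il1a (-0.23) and Il6 (-0.92 ± 0.35, adjusted p = 0.227) were not called either. The widest separation among the cytokines fixed for naming was in Il12b, the shared subunit of IL-12 and IL-23, at 33.3 to 205 CPM in LPS and 7.91 to 42.0 CPM in LPS + nicotine (log2 fold change -1.81 ± 0.45, adjusted p = 0.0791). Il10 reached 5.90 CPM in LPS and 10.4 CPM in LPS + nicotine and was too low to be tested.

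Among 21 tested chemokines 1 fell (Ccl22) and none rose, and 16 lay below 0 with a median of -0.50. With each culture centred on its median, 3 of the 21 fell (Ccl2, Ccl3 and Ccl22) and the median was -0.75. Ccl2, the ligand of CCR2 that recruits monocytes, was at 148, 505 and 631 CPM in LPS and 83.7, 139 and 171 CPM in LPS + nicotine (log2 fold change -1.54 ± 0.36, adjusted p = 0.0664). The LPS cultures split by well: the 2 edge cultures read 150 and 148 CPM, and the 5 middle cultures 488 to 631 CPM. Against the LPS edge cultures alone the difference was -0.21 (adjusted p = 0.841). Ccl3, chosen after its values were seen, had no overlap between groups (log2 fold change -1.15 ± 0.25, adjusted p = 0.0527). Il1rn, the secreted interleukin-1 receptor antagonist and chosen in the same way, was at 74.5, 151 and 279 CPM in LPS and 28.8, 60.3 and 103 CPM in LPS + nicotine (log2 fold change -1.40 ± 0.32, adjusted p = 0.0664).

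Receptor-proximal genes were looked at next. Among all 9078 genes tested 0.441% were called, so short lists such as these would seldom hold a call. Chrna7 was at 0 CPM in each culture of the 2 groups, as it was in those given nicotine alone or a chemokine, and only Chrnb2 of the nicotinic receptor genes was high enough to be tested, at 0, 1.94 and 36.1 CPM in LPS and 0, 9.24 and 26.3 CPM in LPS + nicotine. None of 12 tested genes of the JAK2-STAT3 arm was called (limma, median -0.14). Socs3, the feedback inhibitor of this arm, had a log2 fold change of -0.20 (adjusted p = 0.673), Stat3 of -0.081 (0.918) and Jak2 of -0.46 (0.394). The lists of NF-kB subunits and inhibitors (20 tested, median -0.036) and of Toll-like receptors with their proximal signalling genes (19 tested, median 0.12) also held no called gene.

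Genes responsive to LPS were then defined in other cultures, by comparing LPS with norepinephrine against norepinephrine alone at 4 h, which gave 815 higher (6.76%) and 837 lower genes (6.94%) of 12055. Of 784 tested genes that were higher with LPS there, 4 rose and 6 fell with nicotine, and the median log2 fold change was -0.11. Of 654 genes that were lower with LPS there, 4 rose and none fell, and the median was 0.54, with 546 of them above 0. Among all 9078 genes tested, 31 rose (0.341%), 9 fell (0.0991%) and 6360 lay above 0. The medians on plate X were -0.21 and 0.32 for these lists, beside 0.062 for all genes. On plate Y they were -0.011 and 0.70, beside 0.39. The type I interferon list had no called gene among 32, with 26 below 0 (median -0.22).

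Some lists differed between fits. Targets of the antioxidant factor NRF2 had a median of 0.70, with 22 of 23 above 0, beside 6360 of all 9078 genes. They held 1 called gene, the cystine transporter Slc7a11 (log2 fold change 2.10 ± 0.45, adjusted p = 0.0474, 0.93 on plate X and 3.07 on plate Y). Edge wells exceeded middle wells of the same pool for Slc7a11 by 1.17 (adjusted p = 0.000193), in a test that called 87 of 12055 genes (0.722%), 10 of them higher (0.083%) and 77 lower (0.639%) at the edge. Hmox1, the haem oxygenase of the same list, had a log2 fold change of 0.32 (adjusted p = 0.663). A fit on all 63 cultures at 4 h tested 26 NRF2 targets, 24 sterol genes and 29 proliferation genes, with a median over the 9078 genes of 0.042 with pool as a term and 0.037 with well position added. The NRF2 median was 0.74 with pool and 0.059 with pool and position. Sterol synthesis genes had a median of 0.46 in the 15 cultures (22 tested), 0.16 with pool and -0.15 with pool and position. Proliferation genes had a median of -0.44 in the 15 cultures (21 tested), -0.82 with pool and 0.35 with pool and position, and 15 of the 29 were lower in edge wells. The cultures, genes and terms of these fits differ, and the cause of these moves was not tested. The medians of cytokines (-0.47) and chemokines (-0.49) with pool and position were close to those of the 15 cultures. Heat shock (median 0.24), unfolded protein (0.19), lysosome (0.16), glycolysis (0.28), p53 (-0.071) and MHC class II (-0.17) genes held no called member, nor did LXR targets (0.40), purinergic genes (0.28), matrix metalloproteinases (-0.20) or homeostatic microglial genes (0.088). Calls were 0.441% of all 9078 genes, so lists of this size would seldom hold any.

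**Figure D3:**
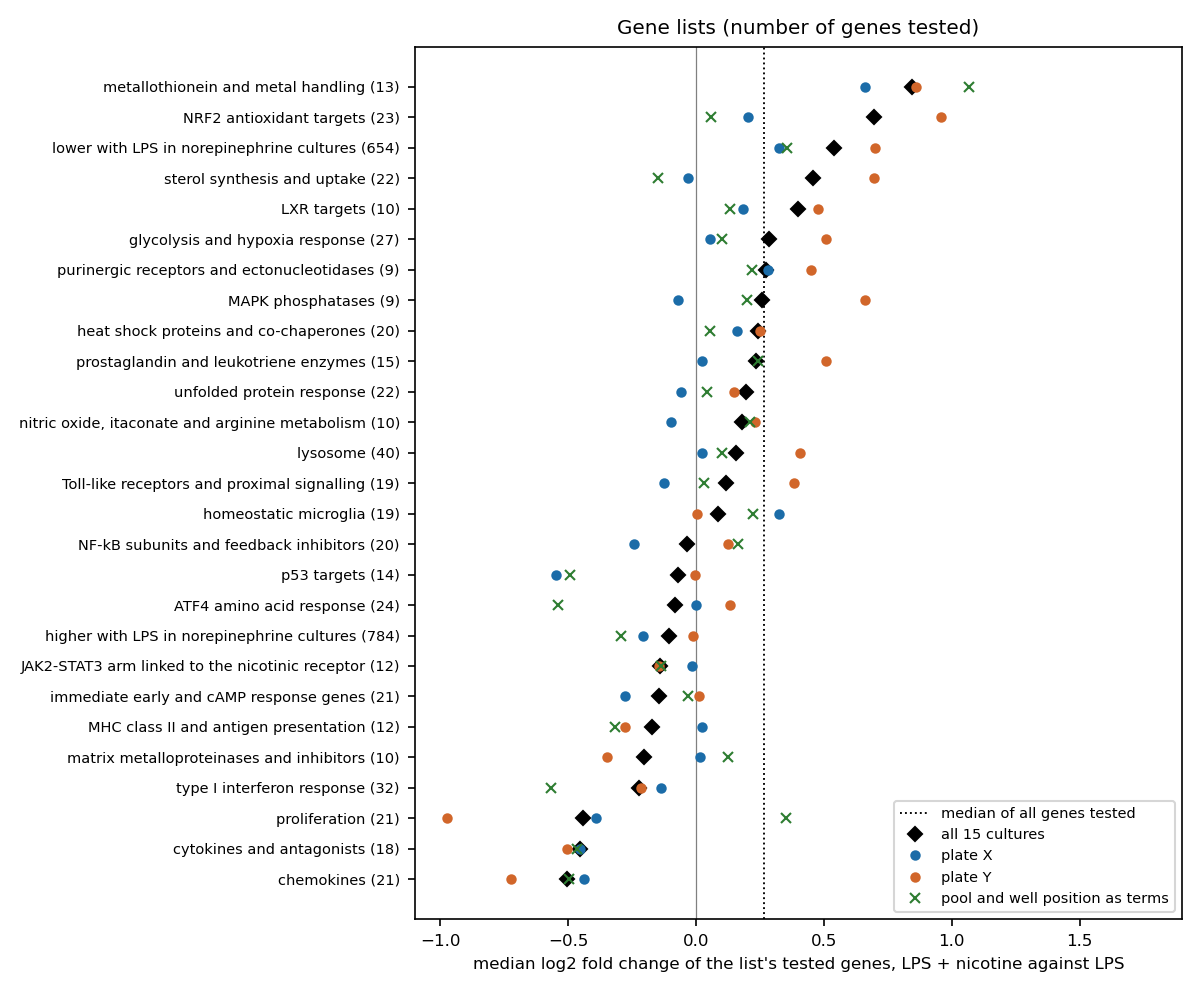
Median log2 fold change of the tested genes of each list for all 15 cultures (diamonds), plate X and plate Y (points) and a fit with library pool and well position as terms (crosses); the dotted line is the median of all genes, 0.27. Cytokines and chemokines lay below 0 in each of these fits, whereas the NRF2 list moved from 0.70 to 0.059 when pool and position were terms.

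How far the called genes stand depends on how pool and position were handled. With pool as a term in the 15 cultures no gene was called (limma, 144 genes at an unadjusted p under 0.05). The estimates of that fit rest on pool X1, the only pool with both groups (3 LPS and 2 LPS + nicotine cultures). They are therefore not separate from those within pool X1 given below. No gene was called against the 2 LPS edge cultures alone (956 genes). When all 63 cultures at 4 h shared the fit with pool as a term, 20 genes were called (0.166%), 11 of them among the 40. With well position added as well, 2 genes were called (0.0166%), Dusp1 (3.54 ± 0.51, adjusted p = 7.84e-05) and Gm13889 (-3.08 ± 0.51, adjusted p = 0.000985). In that fit Per1 went from 4.40 to 3.40 ± 0.86 and Ptgs2 from -2.56 to -2.66, neither of them called (adjusted p = 0.181 each), and Mt2 went from 2.42 to 1.28 (adjusted p = 0.771). Within pool X1 alone the differences were 3.66 for Dusp1, -2.86 for Gm13889 and -2.01 for Ptgs2, with no gene called (346 genes at an unadjusted p under 0.05).

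**Figure D4:**
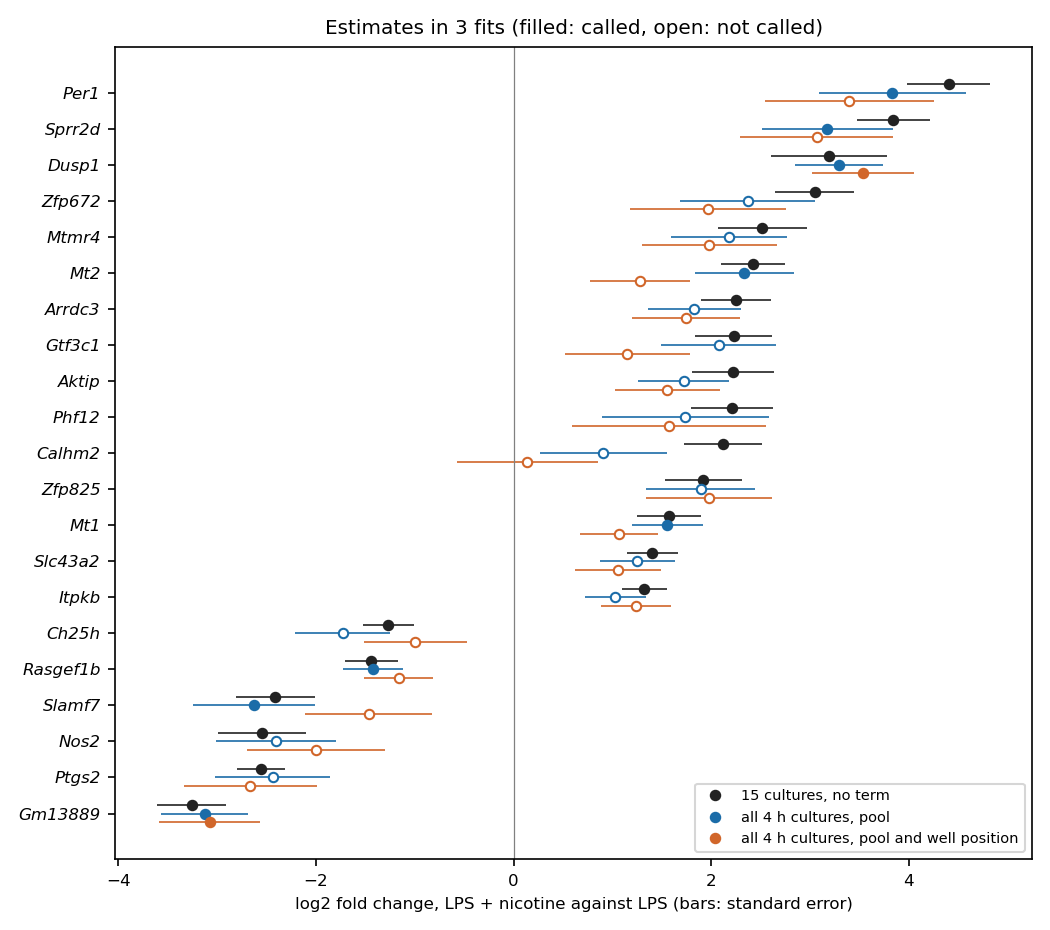
Log2 fold change ± SE of 21 called genes without overlap in the 15 cultures, in a fit on all 4 h cultures with pool as a term, and in a fit with pool and well position as terms; filled points were called. Dusp1 (3.54) and Gm13889 (-3.08) were the filled points in the last of these fits.

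Nicotine without LPS was compared at the same time against the CCL2 and CCL7 cultures, which share no culture with the comparison above but lie on the same plates. The edge layout recurs here: all 8 nicotine cultures lay in edge or corner wells, against 2 of 7 CCL2 and 4 of 7 CCL7 cultures. On plate X the nicotine cultures were in pool X2 and the chemokine cultures in pool X1, so treatment and pool cannot be told apart there. It gave 87 calls of 12055 genes (0.722%), of which 39 rose (0.324%) and 48 fell (0.398%). Per1 rose by 2.89 (adjusted p = 0.00254) and Dusp1 by 2.78 (adjusted p = 3.26e-06). Arrdc3 (1.78) and Slc43a2 (1.19) also rose, and Ch25h (-3.01) and Rasgef1b (-1.06) fell. These 6 genes were the ones called in both comparisons, 15% of the 40 and 6.90% of the 87, and each had the same direction in both. Tnf fell by 1.48 without LPS (adjusted p = 0.000965). With pool and well position as terms, Dusp1 (2.86), Ch25h (-2.86) and Tnf (-1.42) stayed past the test, whereas Per1 (2.19, adjusted p = 0.302), Arrdc3 (1.496, adjusted p = 0.238), Slc43a2 (1.21, adjusted p = 0.237) and Rasgef1b (-0.85, adjusted p = 0.343) did not.

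Several genes with the largest rises under nicotine without LPS did not pass the test in its presence, though their estimates there were also above 0. Being called without LPS and not with it does not show that the effects differ. Fkbp5, a co-chaperone of the glucocorticoid receptor and one of its induced targets, had a median of 212 CPM with nicotine alone (log2 fold change 3.91, adjusted p = 1.2e-09) and of 16.5 CPM in LPS + nicotine against 6.40 CPM in LPS (1.32 ± 0.41, adjusted p = 0.154). Tsc22d3, the glucocorticoid-induced leucine zipper, was at a median of 57.6 CPM with nicotine alone, 9.78 CPM in LPS + nicotine and 0 CPM in LPS (2.46 ± 0.53, adjusted p = 0.0527). Klf9, a zinc finger factor of the same hormone response, had medians of 253, 52.9 and 5.90 CPM in that order (2.23 ± 0.74, adjusted p = 0.182). Fkbp5, Tsc22d3 and Klf9 were chosen after their values were seen. A test of the difference between the nicotine effects with and without LPS called 17 of 12055 genes (0.141%). Fkbp5 was not among them (-2.59, adjusted p = 0.0657), nor were Per1 (1.52), Dusp1 (0.41) and Ptgs2 (-2.38, adjusted p = 0.181). With a plate term Fkbp5 was called (-2.61, adjusted p = 0.0427). Sprr2d was called (4.15, adjusted p = 0.00701), being at 0 to 3.72 CPM with nicotine alone.

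At 24 h without LPS, nicotine (8 cultures) against untreated cultures (40) called 344 of 11608 genes (2.96%). Per1 (2.20), Dusp1 (2.36) and Arrdc3 (1.66) rose there too, and Ch25h (-1.75) and Tnf (-1.81) fell. Fkbp5 (3.41), Klf9 (3.30) and Tsc22d3 (2.58) also rose. With plate as a term Arrdc3 (1.02, adjusted p = 0.0795) and Tnf (-0.98, under the fold threshold) were not called.

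**Figure D5:**
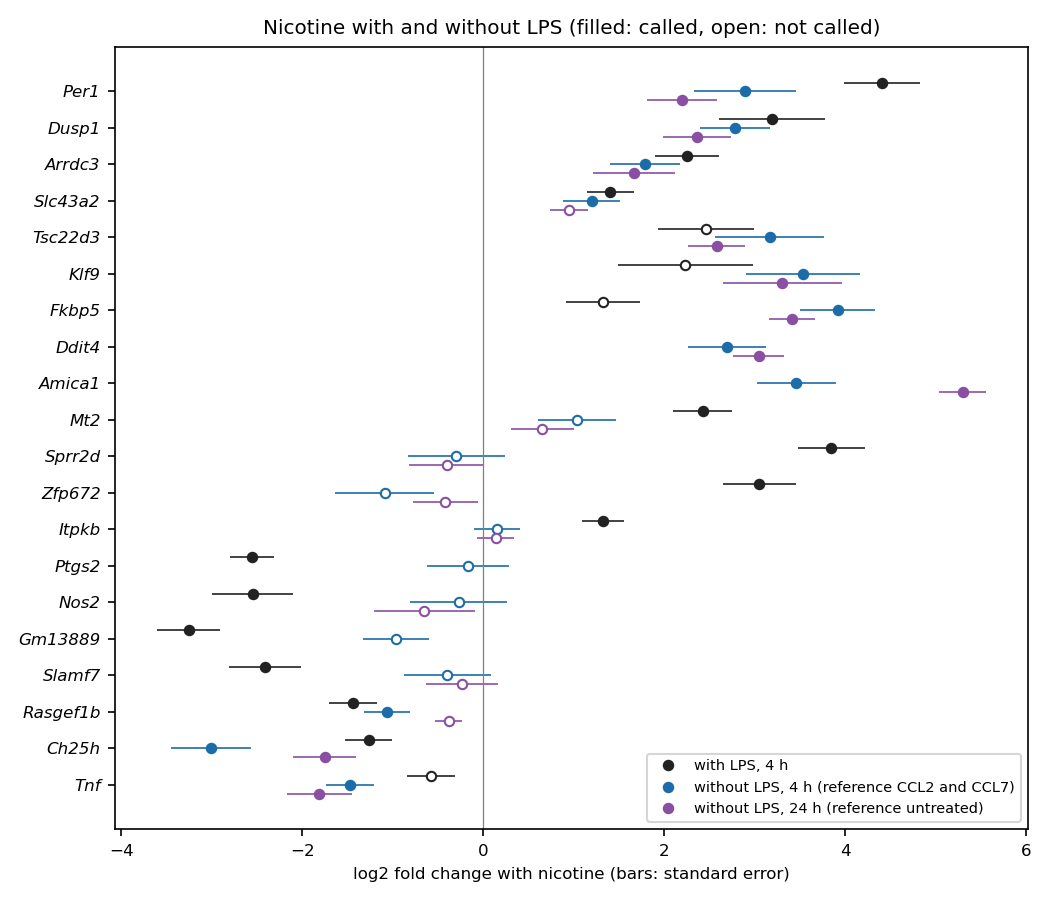
Log2 fold change ± SE of 20 genes for nicotine with LPS at 4 h, without LPS at 4 h and without LPS at 24 h. Per1 and Dusp1 lay above 2 in all 3 comparisons, whereas Fkbp5 was at 1.32 with LPS and at 3.91 and 3.41 without it.

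Norepinephrine, an agonist of adrenergic receptors that raise cAMP, was also added to the same dose of LPS for 4 h. The 2 additions with LPS differed in 52 of 12055 genes (0.431%), 27 of them higher (0.224%) and 25 lower (0.207%) with nicotine. Klf9 (3.95, adjusted p = 0.00108), Per1 (2.52, adjusted p = 0.0485), Dusp1 (1.79, adjusted p = 0.0321) and Tnf (1.71, adjusted p = 0.000909) were higher with nicotine. Il1rn (-3.14, adjusted p = 4.69e-09) and Il10 (-2.60, adjusted p = 9.35e-05) were lower with nicotine than with norepinephrine. Il10 had medians of 12.3 CPM in LPS + norepinephrine, 1.38 CPM in LPS + nicotine and 0.689 CPM in LPS. All 8 LPS + norepinephrine cultures exceeded 5 CPM, which alone took Il10 past the filter and limits its p-value. Between LPS + nicotine and LPS it was too low, so a fall of Il10 with nicotine was not tested. On plate Y the LPS + norepinephrine cultures were in pool Y1 and the LPS + nicotine cultures in pool Y2, and with pool as a term 46 genes were called, Per1 no longer among them (2.08, adjusted p = 0.338). Set against the same LPS cultures, norepinephrine gave -2.58 for Gm13889, 2.08 for Mt2, 2.30 for Sprr2d, -2.29 for Tnf, -0.98 for Ptgs2 and -0.66 for Nos2. In that comparison 160 of 12055 genes were called. All 40 genes called with nicotine had the same sign there, and 14 of them were called. These values share their LPS cultures with those of nicotine and are given side by side only.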

How the data were processed

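RNA sequencing libraries of primary microglia were deposited as 1 table of 45581 genes. The deposited values are counts per 1000000 mapped reads (CPM), which the authors made with Salmon 0.7.1 on Ensembl 81 by summing transcript counts per gene and dividing by mapped reads, with no correction for gene length; the submitters' notes list the genome build mm8, whereas Ensembl 81 describes GRCm38, and the table holds no coordinates. The values of the 15 cultures fell within 0.1 of whole reads for only 74.8% to 84.2% of low values, so no count test was run, and depths are estimates.

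Genes above 5 CPM in at least 4 cultures of a fit were tested on log2(CPM + 1) by limma 3.58.1 (R 4.3.3), and p-values were adjusted over all genes tested by the Benjamini-Hochberg method. Called genes had an adjusted p under 0.05 and a log2 fold change of 1 or more in either direction. The study called genes against a negative binomial error model built from control cultures, which was not refitted because the table holds no counts. Fits with all 63 cultures at 4 h (9 groups) served the comparisons without LPS and with norepinephrine. The pipeline was tested on simulated data. Groups, plates, pools and wells came from the labels. No pair of the 15 cultures was identical (pairwise r of 0.714 to 0.960).

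The text names called genes with at least 5 CPM in the higher group, no overlap and the same sign on both plates (up to 15 in each direction), up to 4 called genes a list and direction, and 15 immune genes fixed by name; others are stated as chosen after their values were seen. The members and the 33 gene lists were chosen with earlier results of these data known. Gene positions are from GENCODE vM21 (GRCm38), and promoters from RefSeq (GRCm38.p6), which held 50 of 63 named genes. Many named genes overlap others in the annotation, among them Dusp1, Mt2, Arrdc3, Zfp672, Slamf7, Rasgef1b and Ch25h, and shared reads could be assigned to either gene. Alternatives were other pseudocounts, filters, batch terms, subsets of wells, plates or pools, a rank-sum test and leaving out each culture.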

Additional observations from a re-analysis of the deposited data

Results flagged for a closer look

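Among 118 checks of single cultures against their group, of which chance alone gives about 1 in 20, 8 values stood apart. LPS replicate 1, the edge well of plate X, was the high culture of its group for Per1 (7.57 CPM), Sprr2d (4.22 CPM) and Gm37188 (1.04 CPM). LPS replicate 4, the edge well of plate Y, was the low culture for Tnfrsf23, a decoy receptor gene (2.81 CPM). In LPS + nicotine, replicate 8 was high for Mtmr4 (27.7 CPM) and for the NRF2 target Srxn1 (549 CPM), replicate 3 was low for Tnfrsf23 (19.01 CPM) and replicate 5 was low for Mplkip (1.39 CPM). Gm37188, Tnfrsf23, Srxn1 and Mplkip were chosen after their values were seen.

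By the limma interaction test, 17 of 12055 genes (0.141%) differed in the nicotine effect at 4 h with and without LPS, among them Sprr2d and Zfp672, which the naming rule gave, and Asap3, Amica1 and Cebpa, which were chosen after their values were seen. The log2 effect with LPS exceeded that without it by 4.15 for Sprr2d (adjusted p = 0.00701), by 4.14 for Zfp672 (adjusted p = 0.00771) and by 2.24 for Cebpa, which encodes a myeloid transcription factor (adjusted p = 0.00701). The difference was -2.62 for Asap3 (adjusted p = 0.0403) and -3.34 for the adhesion molecule gene Amica1 (adjusted p = 0.00771), which had a median of 12.8 CPM with nicotine alone and did not exceed 4.09 CPM in LPS + nicotine. Asap3 was at 1.24 to 19.3 CPM in LPS, but did not exceed 2.18 CPM with nicotine alone or 4.59 CPM in the CCL2 and CCL7 cultures. It therefore had little room to fall without LPS. With pool as a term Zfp672 was no longer called (3.52, adjusted p = 0.0778).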

How the results depend on the processing

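The 40 calls became 84 with a plate term, 63 in a fit on all 4 h cultures, 134 with plate and position in that fit, 70 with a pseudocount of 5 and 12 with no filter on low values. No gene was called with a pool term (144 at an unadjusted p under 0.05), against LPS edge wells alone (956) or by an exact rank-sum test (1055), whose smallest p is 0.000311. With the pool term the estimates came from pool X1 alone. Of the alternatives added after seeing the data, the fit on all 4 h cultures with pool gave 20 calls and with pool and position 2, plate X alone gave 1, plate Y alone 105 and pool X1 alone 0 (346). Leaving out 1 culture gave 12 to 109 calls: 109 without LPS replicate 1, 18 without 5, 14 without 6 and 12 without 7, and for LPS + nicotine 26 without replicate 4, 24 without 5, 15 without 6, 17 without 7 and 25 without 8. Nicotine without LPS gave 151 calls with a plate term, 132 with pool and 32 with pool and position, against 87. The test of the difference of effects gave 40 calls with a plate term and 14 with pool, against 17. Reversed signs occurred only among uncalled genes: Socs3 was at 0.20 with pool, 0.27 with pool and position and 0.059 on plate X; Stat3 at 0.28 against LPS edge wells and between -0.21 and 0.0208 with 1 culture left out; and Hmox1 at -0.051 with a pool term and in pool X1 and at -0.17 against LPS edge wells. The cause of these changes was not tested. No paired analysis was possible because the labels give the cultures no replicate numbers. Depth of 1.20 M reads in the shallowest LPS culture limits genes of a few CPM.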
